A study of Arabidopsis thaliana with 10 samples.

Results

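The genes described here encode the minor antenna of photosystem II and its quenching protein in Arabidopsis thaliana. They were chosen by gene identifier as LHCB4.1 (AT5G01530), LHCB4.2 (AT3G08940), LHCB4.3 (AT2G40100), LHCB5 (AT4G10340), LHCB6 (AT1G15820) and PSBS (AT1G44575). These are 6 of the 33602 genes counted, and all 6 were among the 20628 genes tested.

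RNA was sequenced from whole seedlings in 10 libraries, 2 from each of 5 groups, all in the Col6-3 background. On 5 µM norflurazon there were gun1-9, which carries a mutant allele of the plastid signalling gene GUN1, MORF2OX and MORF2OX(w), both named as overexpressors of the plastid RNA editing factor MORF2, and wild type. The fifth group was wild type without treatment. Seedlings were 5 days old, with a treatment time labelled as 5 days, and grew in continuous light of 100 µmol per square metre and second at 22 °C, and every library came from a pool of over 100 seedlings of 1 genotype. The submitters describe the phenotypes of MORF2OX and MORF2OX(w) as unequal in strength. The labels give neither the promoter nor the number of independent lines behind the MORF2OX names, and no untreated gun1-9 or MORF2OX libraries were used here.

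Light absorbed by the trimeric LHCII proteins reaches the photosystem II core through 3 monomeric chlorophyll-binding proteins, CP29, CP26 and CP24. CP29 is encoded by the LHCB4 genes, CP26 by LHCB5 and CP24 by LHCB6. CP29 and CP24 sit together between the core and an LHCII trimer, while CP26 sits elsewhere on the core. PSBS belongs to the same protein superfamily, senses the acidity of the thylakoid lumen and switches on the heat release known as energy-dependent quenching. All 6 are nuclear genes whose proteins are imported into the chloroplast. Norflurazon blocks carotenoid synthesis, so seedlings bleach in the light, and transcripts of nuclear photosynthesis genes are known to fall when plastids are damaged in this way. In gun ("genomes uncoupled") mutants this fall is known to be smaller.

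The 3 LHCB4 genes are the only isoform set among the 6, and the results below turn on their differences, so sequences are shown for them. All coordinates and sequences are from the RefSeq assembly TAIR10.1 and its annotation. LHCB4.1 lies at chr5:208866-210548, LHCB4.2 at chr3:2717557-2718923 and LHCB4.3 at chr2:16745628-16747424, all on the plus strand. Their coding sequences are 873, 864 and 831 bases long. The last 90 coding bases, with the stop codon in capitals, were the following.
LHCB4.1: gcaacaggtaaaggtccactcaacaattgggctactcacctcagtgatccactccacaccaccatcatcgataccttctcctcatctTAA
LHCB4.2: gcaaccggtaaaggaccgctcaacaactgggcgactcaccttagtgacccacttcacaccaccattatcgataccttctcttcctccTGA
LHCB4.3: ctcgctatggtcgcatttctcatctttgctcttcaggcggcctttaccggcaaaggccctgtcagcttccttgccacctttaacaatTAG
Over the whole coding sequence LHCB4.1 and LHCB4.2 were identical at 81.9% of aligned bases, LHCB4.1 and LHCB4.3 at 70.2%, and LHCB4.2 and LHCB4.3 at 71.6%. The longest run of identical bases shared by LHCB4.1 and LHCB4.2 was 23 bases, and no pair among the 6 genes shared a window of 50 bases. LHCB5 lies at chr4:6408007-6409849 on the plus strand, LHCB6 at chr1:5446462-5447880 on the minus strand and PSBS at chr1:16870221-16873427 on the plus strand.

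The bases before the annotated start of the 3 LHCB4 genes and of LHCB6 are shown because these genes moved by different amounts. They reach back 250 bases or to the next gene. Capitals mark matches, on either strand, to the G-box CACGTG, to CCAATC, a motif known to be bound by the GLK factors, or to the I-box GATAAG.
LHCB4.1, chr5:208616-208865, plus strand: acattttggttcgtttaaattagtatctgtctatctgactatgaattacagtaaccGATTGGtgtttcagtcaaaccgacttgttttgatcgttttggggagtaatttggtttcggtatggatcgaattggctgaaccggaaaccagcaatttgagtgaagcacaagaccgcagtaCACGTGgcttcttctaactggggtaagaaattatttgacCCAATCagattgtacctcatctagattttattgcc
LHCB4.2, chr3:2717367-2717556, plus strand: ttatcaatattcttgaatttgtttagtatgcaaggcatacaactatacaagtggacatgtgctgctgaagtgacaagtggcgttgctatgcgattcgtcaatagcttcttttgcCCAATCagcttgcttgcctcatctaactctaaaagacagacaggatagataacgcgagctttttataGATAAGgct
LHCB4.3, chr2:16745378-16745627, plus strand: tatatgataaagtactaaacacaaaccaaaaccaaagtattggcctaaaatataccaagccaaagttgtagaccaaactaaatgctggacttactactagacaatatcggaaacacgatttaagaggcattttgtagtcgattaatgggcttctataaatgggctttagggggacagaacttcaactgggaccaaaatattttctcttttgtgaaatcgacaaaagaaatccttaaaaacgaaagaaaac
LHCB6, chr1:5447881-5448059, minus strand: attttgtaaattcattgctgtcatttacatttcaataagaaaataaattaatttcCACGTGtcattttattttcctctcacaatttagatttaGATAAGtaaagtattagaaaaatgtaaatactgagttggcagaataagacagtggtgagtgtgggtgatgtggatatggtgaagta
LHCB4.1 held 1 G-box and 2 CCAATC matches, LHCB4.2 held 1 CCAATC and 1 I-box, and LHCB6 held 1 G-box and 1 I-box. The printed stretch of LHCB4.3 held none of the 3 motifs, and neither did the 47 bases between LHCB5 and the next gene. PSBS has several annotated transcripts, and the 250 bases before the start of the one used here, chr1:16871511, held none either, but they lie inside the annotated span of the gene. Among 27443 upstream windows of 250 bases in the genome, longer than the stretches of LHCB4.2, LHCB5 and LHCB6, 6.58% held a G-box, 10.3% CCAATC and 12.4% an I-box. A match describes the letters and is not a binding site.

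The libraries held 19018594 to 25220815 counts each, of which the 6 genes together took 16447 to 439690. The gene named in the line labels was checked first. MORF2 stood at 7969 and 7248 CPM (counts scaled to library size with TMM factors) in MORF2OX and at 4430 and 5012 CPM in MORF2OX(w), against 99.7 and 104.8 CPM in wild type on norflurazon. GUN1 stood at 154 and 147 CPM in gun1-9 against 191 and 284 CPM in wild type on norflurazon, although the level of a transcript alone does not check a mutant allele. GUN1 was also called higher than in treated wild type in MORF2OX (log2 fold change 0.90) and MORF2OX(w) (0.56). The MORF2OX(w) call was lost under all 3 other scalings (edgeR adjusted p of 0.051 to 0.131) and with only the 2 groups in the fit (0.227). It was also lost in every fit without 1 library, except that without replicate 2 of treated wild type. Without replicate 1 of treated wild type the log2 fold change was 0.31. The 2 libraries of wild type on norflurazon differed more than any other pair, with a chi-square of 36.05 for each degree of freedom, where the other 4 pairs had 5.216 to 10.08, so values against that group are given below also without each of its libraries where this matters. Of 4 marker lists, the summed level of 4 guard cell genes was 31.3 to 41.8 CPM in the norflurazon libraries and 73.6 to 79.7 CPM in untreated wild type. That of 6 vascular genes was 114 to 168 CPM on norflurazon and 311 to 378 CPM untreated. That of 6 root genes was 129 to 150 CPM in gun1-9, 61.7 to 76.7 CPM in the other norflurazon libraries and 90.9 to 96.1 CPM untreated. This root sum was mostly SCR (869 to 2576 counts) and SHR (263 to 434), while COBL9, EXPA7, PLT1 and WOX5 had at most 153 counts. Gene by gene, the root median log2 fold change in gun1-9 against treated wild type was -0.36, with 1 of 6 called higher. In treated against untreated wild type it was 0.64, with 3 called higher and 1 lower. The summed level of 8 seed storage genes was 0.860 to 25.4 CPM on norflurazon, against 1.38 CPM in replicate 1 and 167 CPM in replicate 2 of untreated wild type. No guard cell, vascular or root marker was at 0 in any library, while CRB was at 0 in 5 and OLEO1 and SESA1 in 2 each. Whether these cell types or stages take part in the results below was not tested.

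Norflurazon lowered the transcripts of all 6 genes in wild type, but not evenly. The question of this comparison is how far the minor antenna genes fall when chloroplast development is blocked. LHCB4.2 kept 0.740% of its untreated mean, LHCB6 0.957%, LHCB5 1.37%, PSBS 2.35%, LHCB4.1 7.16% and LHCB4.3 25.8%. All 6 were called lower, where 34.5% of the genes tested were called lower.

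LHCB4.1, the most abundant CP29 gene, was at 461 and 351 CPM in wild type on norflurazon, against 6109 and 5222 CPM in untreated wild type. LHCB4.2, the second CP29 gene, was at 30.5 and 25.3 CPM on norflurazon, against 4078 and 3455 CPM untreated. The groups were far apart for both genes, and the drop of LHCB4.2 was the larger in proportion. LHCB4.3, the third CP29 gene, was at 14.7 and 11.9 CPM on norflurazon, against 60.2 and 42.9 CPM untreated. It was the least abundant of the 6 in both groups and also did not overlap between them. Here and below, 2 libraries against 2 lie fully apart in either direction with a probability of 0.333 when nothing differs. The share of all genes tested that lay apart was not counted, so separation is a description only.

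LHCB5, encoding CP26, was at 149 and 93.9 CPM on norflurazon, against 9568 and 8174 CPM untreated. LHCB6, encoding CP24, was at 67.1 and 36.9 CPM on norflurazon, against 5835 and 5028 CPM untreated. Both were higher in replicate 1 than in replicate 2 of treated wild type, a spread small beside the gap between groups. PSBS was at 72.9 and 67.5 CPM on norflurazon, against 3312 and 2669 CPM untreated, with closely matched treated libraries. In whole seedlings, fewer cells of a type and less RNA per cell cannot be told apart in any of these values.

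The fitted log2 fold changes, from the quasi-likelihood test of edgeR with Benjamini-Hochberg adjustment over all genes tested, ran from -7.08 ± 0.17 (SE) for LHCB4.2 (adjusted p = 1.15e-10) to -1.95 ± 0.18 for LHCB4.3 (adjusted p = 1.53e-06). LHCB6 fell by 6.71 on the log2 scale, LHCB5 by 6.19, PSBS by 5.41 and LHCB4.1 by 3.80. Without replicate 1 or replicate 2 of treated wild type LHCB6 stood at -7.19 or -6.34, and LHCB4.2 at -7.21 or -6.95. The 2 genes thus hardly differed without replicate 1. The 95% interval of LHCB4.2 was -7.46 to -6.70 and that of LHCB4.1 was -4.16 to -3.44, and these intervals of the 2 main CP29 genes did not meet. The median of the 6 was -5.80, and that of all genes tested was -0.03. Without a scaling factor beyond the library totals, the median of all genes moved by 0.734, and LHCB4.2 then stood at -6.34 and LHCB4.3 at -1.21.

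**Figure D1:**
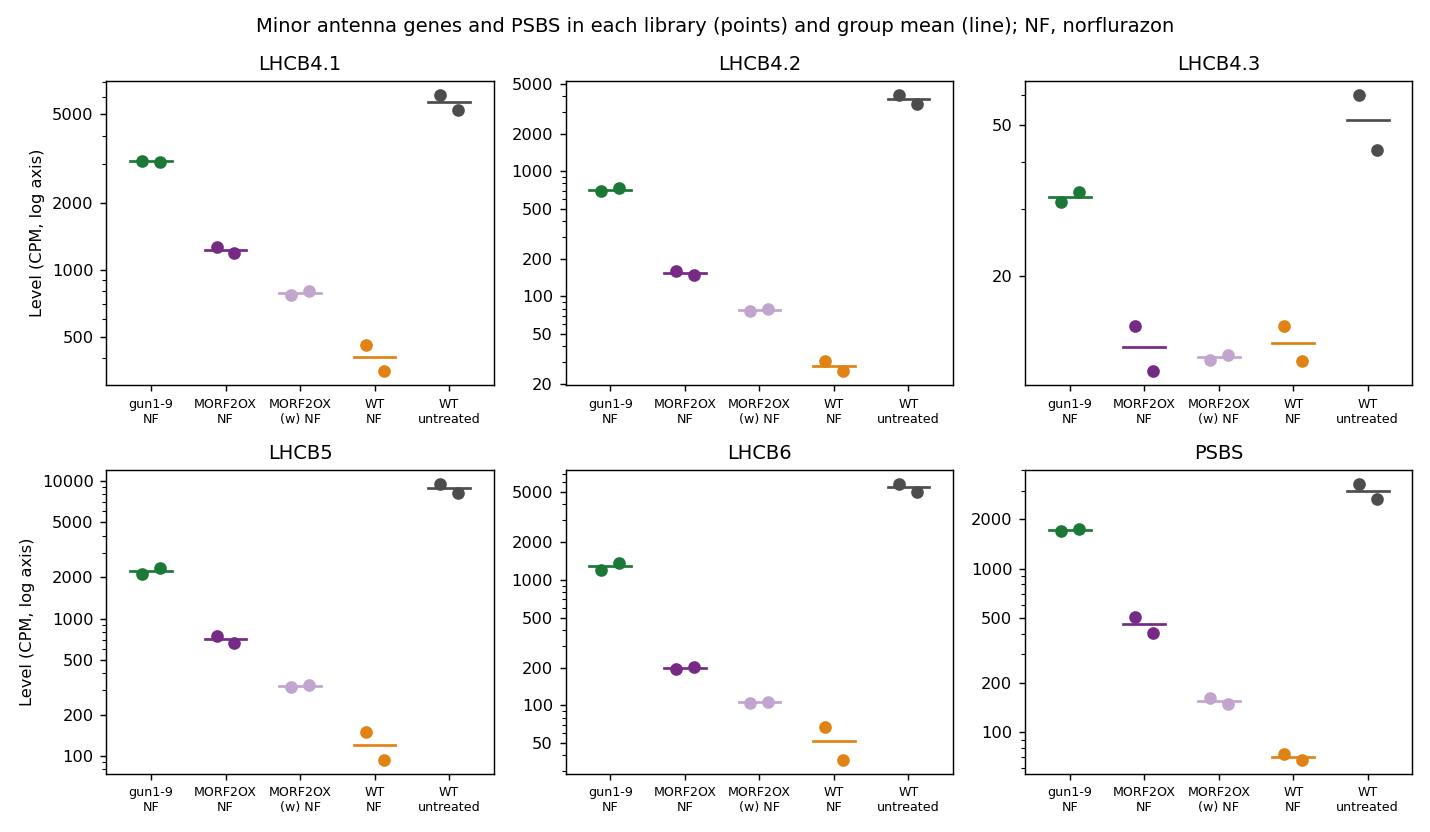
Level of each gene in CPM on a log axis in the 10 libraries, 1 panel per gene with its own scale; points are libraries and lines are group means (n = 2). LHCB4.1, LHCB4.2, LHCB5, LHCB6 and PSBS are highest in untreated wild type, then gun1-9, MORF2OX, MORF2OX(w) and wild type on norflurazon, while the points of LHCB4.3 in MORF2OX, MORF2OX(w) and wild type on norflurazon overlap at 11.2 to 14.8 CPM.

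The order of the 6 genes differed with treatment. Compared per kilobase of 1 annotated transcript of each gene, LHCB4.1 was first in all 4 norflurazon groups, followed by LHCB5, PSBS, LHCB6, LHCB4.2 and LHCB4.3. In wild type on norflurazon these levels were 290.7 ± 56.0, 87.4 ± 28, 54.5 ± 2.96, 43.2 ± 17.7, 21.8 ± 2.85 and 10.1 ± 1.52 CPM per kb in that order (SD, n = 2 here and below), and there PSBS and LHCB6 overlapped. In gun1-9, MORF2OX and MORF2OX(w) no neighbours in the order overlapped by these lengths. PSBS has 3 annotated transcripts, and the 1 used is 1288 bases long, while its exons together cover 1808 bases. With the longer length its level per kb would be lower. Its place above LHCB6 therefore depends on this choice in gun1-9, MORF2OX(w) and wild type on norflurazon. Untreated wild type had LHCB5 first at 6387 ± 710.1 CPM per kb, followed by LHCB6 at 4511 ± 474.2 and LHCB4.1 at 4058 ± 449.3, whose libraries overlapped. LHCB4.2 followed at 2938 ± 343.8, PSBS at 2322 ± 353.0 and LHCB4.3 at 39.0 ± 9.24.

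In gun1-9 on norflurazon all 6 transcripts were higher than in wild type on norflurazon. LHCB4.2, LHCB6, PSBS and LHCB5 were 18.3-fold to 25.5-fold higher, LHCB4.1 was 7.57-fold higher and LHCB4.3 was 2.44-fold higher. This comparison asks how levels on norflurazon differ between the mutant and wild type. Without untreated gun1-9 libraries, a smaller fall and a different starting level cannot be told apart. All 6 were called higher, where 22.9% of the genes tested were called higher.

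LHCB4.1 was at 3080 and 3063 CPM in gun1-9, against 461 and 351 CPM in wild type on norflurazon. LHCB4.2 was at 689 and 731 CPM in gun1-9, against 30.5 and 25.3 CPM. LHCB4.3 was at 31.4 and 33.4 CPM in gun1-9, against 14.7 and 11.9 CPM. No gun1-9 library of a CP29 gene overlapped with treated wild type, and the gap was smallest for LHCB4.3. LHCB5 was at 2097 and 2340 CPM in gun1-9, against 149 and 93.9 CPM in treated wild type, and LHCB6 at 1202 and 1353 CPM, against 67.1 and 36.9 CPM. PSBS was at 1692 and 1736 CPM in gun1-9, against 72.9 and 67.5 CPM in treated wild type. For these 3 genes too the groups were apart.

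The log2 fold changes in gun1-9 were 4.67 ± 0.16 for LHCB4.2, 4.62 ± 0.25 for LHCB6, 4.61 ± 0.17 for PSBS and 4.19 ± 0.21 for LHCB5 (edgeR adjusted p of 1.69e-09, 4.65e-08, 2.94e-09 and 3.16e-08). LHCB4.1 stood at 2.92 ± 0.16 (adjusted p = 5.13e-08) and LHCB4.3 at 1.29 ± 0.18 (adjusted p = 0.000114). The median of the 6 was 4.4, against -0.04 over all genes tested. Leaving out replicate 1 or replicate 2 of wild type on norflurazon gave 5.11 or 4.26 for LHCB6, whose 2 treated wild type libraries differed most, and all 6 were still called.

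Against untreated wild type, gun1-9 on norflurazon was lower for all 6 genes, where 30.8% of the genes tested were called lower. The distance differed between them. LHCB4.3 stood at 62.8 ± 2.70% of the untreated mean, PSBS at 57.3 ± 1.03% and LHCB4.1 at 54.2 ± 0.209%, whereas LHCB5 stood at 25 ± 1.93%, LHCB6 at 23.5 ± 1.96% and LHCB4.2 at 18.9 ± 0.780% (SD over 2 libraries). The log2 fold change was -0.80 ± 0.15 for PSBS (edgeR adjusted p = 0.000509) and -2.41 ± 0.14 for LHCB4.2 (adjusted p = 5.37e-08), 2 genes with a like fold over treated wild type. That of LHCB4.3, -0.67 ± 0.17 (adjusted p = 0.00522), lost its call without replicate 1 of untreated wild type (-0.35, adjusted p = 0.13), without replicate 1 of gun1-9 (adjusted p = 0.0612) and with library totals as the scaling (adjusted p = 0.0779).

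**Figure D2:**
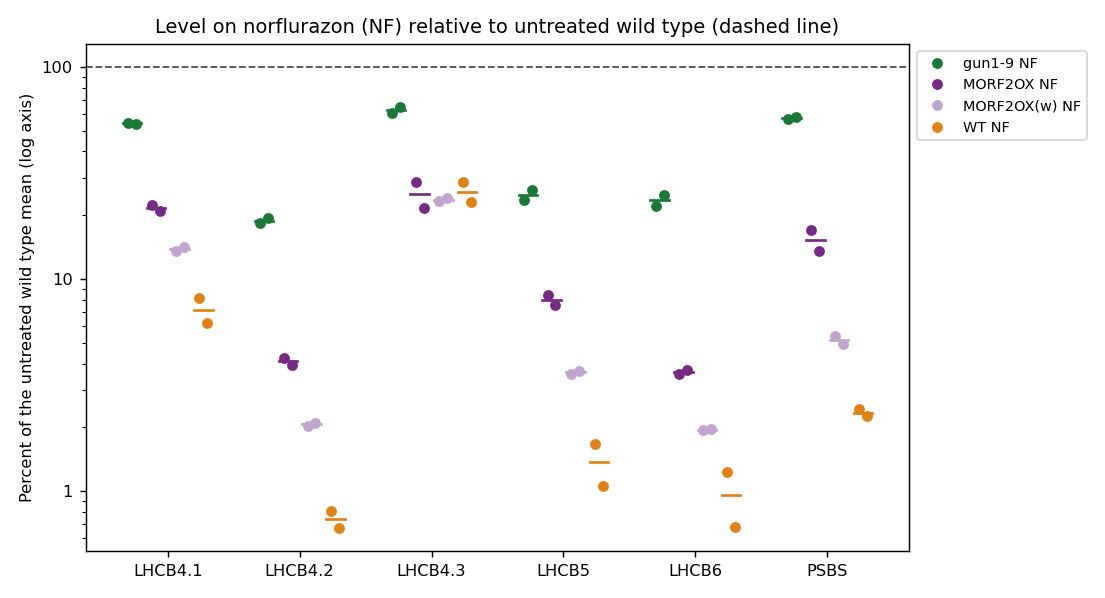
Level of each gene on norflurazon as a percent of its mean in untreated wild type (dashed line at 100), on a log axis, with gun1-9, MORF2OX, MORF2OX(w) and wild type from left to right within each gene; points are libraries and short lines are means (n = 2). Wild type on norflurazon lies at 0.740% for LHCB4.2 and at 25.8% for LHCB4.3, and gun1-9 lies above 50% for LHCB4.1, LHCB4.3 and PSBS.

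MORF2OX had higher levels than wild type on norflurazon of 5 of the 6 genes, and the exception was LHCB4.3. PSBS, LHCB5 and LHCB4.2 were 5.55-fold to 6.52-fold higher, LHCB6 3.81-fold and LHCB4.1 3.04-fold. The 5 calls stand where 19.3% of the genes tested were called higher. MORF2OX and gun1-9 were compared with the same 2 wild type libraries, so their folds over wild type are not independent of each other.

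LHCB4.1 was at 1272 and 1193 CPM in MORF2OX, against 461 and 351 CPM in wild type on norflurazon. LHCB4.2 was at 161 and 149 CPM in MORF2OX, against 30.5 and 25.3 CPM. Both were apart from wild type in every library. LHCB4.3 was at 14.8 and 11.2 CPM in MORF2OX, against 14.7 and 11.9 CPM, and the MORF2OX libraries enclosed those of wild type. LHCB5 was at 746 and 667 CPM in MORF2OX, against 149 and 93.9 CPM in treated wild type, and LHCB6 at 194 and 202 CPM, against 67.1 and 36.9 CPM. PSBS was at 509 and 406 CPM in MORF2OX, against 72.9 and 67.5 CPM in treated wild type. These 3 genes did not overlap between the groups, and PSBS had the wider spread within MORF2OX.

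The log2 fold changes were 2.70 ± 0.16 for PSBS, 2.54 ± 0.20 for LHCB5, 2.47 ± 0.14 for LHCB4.2, 1.93 ± 0.22 for LHCB6 and 1.60 ± 0.15 for LHCB4.1, with edgeR adjusted p of 8.97e-07 to 7.15e-05. That of LHCB4.3 was -0.03 ± 0.18 (adjusted p = 0.912), with a 95% interval of -0.43 to 0.37. The interval does not reach the interval of any of the other 5 genes, the lowest of which began at 1.27. The median of the 6 was 2.2, against 0.02 over all genes tested. Without replicate 1 or replicate 2 of treated wild type LHCB5 stood at 2.91 or 2.25 and PSBS at 2.76 or 2.65. LHCB6 stood at 2.42 or 1.57 in these fits. The order of PSBS and LHCB5 therefore depended on the treated wild type libraries.

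In MORF2OX(w) the same comparison gave smaller folds, and LHCB4.3 was again not called. LHCB4.2 was 2.79-fold higher than in wild type on norflurazon, LHCB5 2.66-fold, PSBS 2.21-fold, LHCB6 2.04-fold and LHCB4.1 1.93-fold. These 5 were called where 8.36% of the genes tested were called higher, against the same 2 wild type libraries as above.

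LHCB4.1 was at 768 and 802 CPM in MORF2OX(w), against 461 and 351 CPM in wild type on norflurazon. LHCB4.2 was at 76.4 and 79.3 CPM in MORF2OX(w), against 30.5 and 25.3 CPM. LHCB4.3 was at 12 and 12.4 CPM in MORF2OX(w), against 14.7 and 11.9 CPM, so that it alone among the CP29 genes overlapped. LHCB5 was at 317 and 328 CPM in MORF2OX(w), against 149 and 93.9 CPM in treated wild type, and LHCB6 at 105 and 107 CPM, against 67.1 and 36.9 CPM. PSBS was at 161 and 149 CPM in MORF2OX(w), against 72.9 and 67.5 CPM in treated wild type. The 2 MORF2OX(w) libraries lay close together for every gene, and for these 3 genes above both wild type libraries.

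The log2 fold changes were 1.48 ± 0.14 for LHCB4.2 (edgeR adjusted p = 0.000143), 1.41 ± 0.19 for LHCB5 (0.000978), 1.14 ± 0.15 for PSBS (0.000799), 1.03 ± 0.22 for LHCB6 (0.0105) and 0.95 ± 0.15 for LHCB4.1 (0.00224). LHCB4.3 stood at -0.12 ± 0.18 (adjusted p = 0.682, 95% interval -0.53 to 0.28). With only these 2 groups in the fit, LHCB4.1 and LHCB6 were not called (adjusted p = 0.0556 and 0.115), which left 3 calls. LHCB6 was also lost without either MORF2OX(w) library, with a highest adjusted p of 0.0847. Without replicate 1 or replicate 2 of treated wild type it stood at 1.53 or 0.67.

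**Figure D3:**
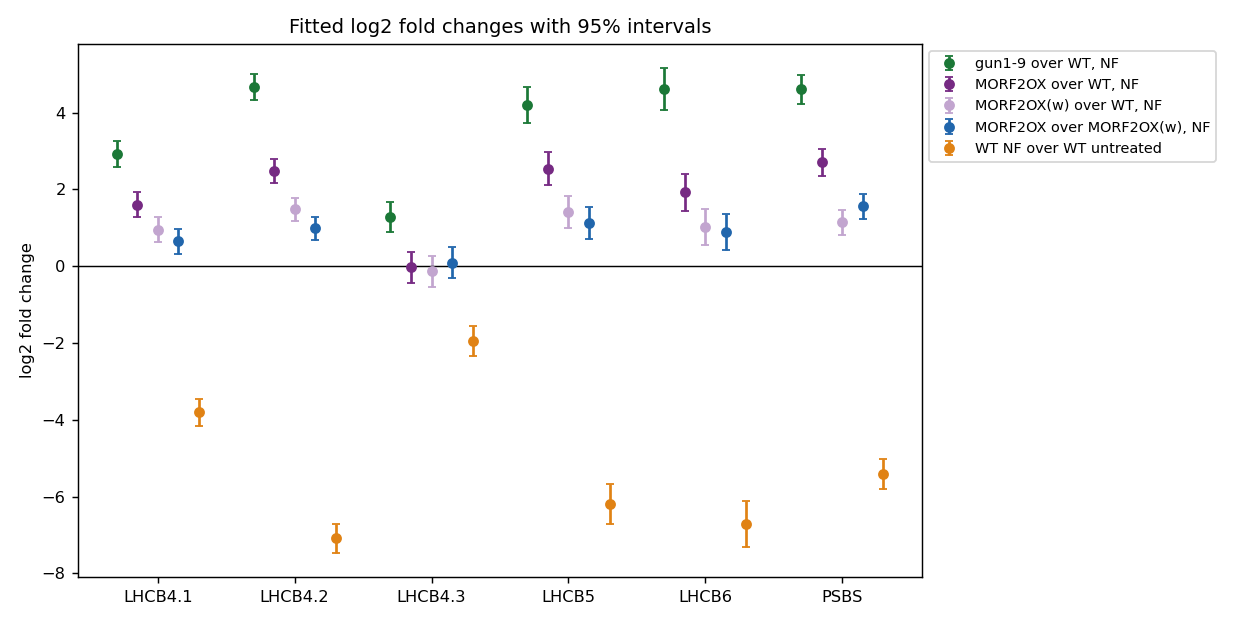
Fitted log2 fold changes of the 6 genes with 95% intervals in 5 comparisons, each with the group named first in the legend on top. The interval of LHCB4.3 includes 0 in the 3 comparisons that involve MORF2OX or MORF2OX(w) and lies above 0 in gun1-9.

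Between the overexpressors, the gene with the largest difference was PSBS. MORF2OX exceeded MORF2OX(w) by a log2 fold change of 1.56 ± 0.15 for PSBS (edgeR adjusted p = 0.00103), 1.13 ± 0.19 for LHCB5 (0.0134), 0.99 ± 0.14 for LHCB4.2 (0.00577) and 0.65 ± 0.15 for LHCB4.1 (0.0486). These 4 genes were called where 1.5% of the genes tested were called higher. LHCB6 stood at 0.90 ± 0.21 (adjusted p = 0.0586), although both of its MORF2OX libraries lay above both MORF2OX(w) libraries. The Wald test of DESeq2 called LHCB6, at 0.89 (adjusted p = 0.000906). LHCB4.3 stood at 0.09 ± 0.19 (adjusted p = 0.92, 95% interval -0.31 to 0.50). The call of PSBS was lost only without replicate 2 of MORF2OX(w) (adjusted p = 0.0541), where no gene of the 6 was called. That of LHCB4.1 was lost in 8 of the 10 fits without 1 library, all but those without a treated wild type library, and under all 3 other scalings. Those of LHCB4.2 and LHCB5 were lost without either MORF2OX(w) library (adjusted p of 0.12 to 0.191), and that of LHCB5 also without either MORF2OX library (0.0554 and 0.0733). LHCB6 was called without either library of treated wild type (adjusted p = 0.000376 and 0.000373), with only the 2 groups in the fit (0.000647) and with no filter (0.000155).

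Both overexpressors were below gun1-9 on norflurazon for all 6 genes. In MORF2OX against gun1-9 the log2 fold change was -2.69 ± 0.22 for LHCB6, -2.20 ± 0.14 for LHCB4.2, -1.91 ± 0.15 for PSBS, -1.65 ± 0.19 for LHCB5 and -1.32 for both LHCB4.1 (SE 0.15) and LHCB4.3 (SE 0.18). All were called by edgeR with adjusted p of 6.67e-07 to 0.00018, where 18.1% of the genes tested were called lower. In MORF2OX(w) against gun1-9 the values ran from -3.59 ± 0.23 for LHCB6 to -1.41 ± 0.18 for LHCB4.3, all called with adjusted p of 2.46e-08 to 8.71e-05, where 19% were called lower. LHCB4.3 was therefore higher in gun1-9 than in each of the other 3 norflurazon groups.

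Against untreated wild type, MORF2OX and MORF2OX(w) were lower for all 6 genes, where 35% and 34.8% of the genes tested were called lower. In MORF2OX the percent of the untreated mean was 21.8 ± 0.983 for LHCB4.1, 15.3 ± 2.43 for PSBS, 7.96 ± 0.636 for LHCB5, 4.1 ± 0.227 for LHCB4.2 and 3.65 ± 0.102 for LHCB6. In MORF2OX(w) it was 13.9 ± 0.422 for LHCB4.1, 5.18 ± 0.303 for PSBS, 3.64 ± 0.0905 for LHCB5, 2.07 ± 0.0552 for LHCB4.2 and 1.95 ± 0.0220 for LHCB6. LHCB4.3 stood at 25.2 ± 4.91% in MORF2OX, 23.6 ± 0.517% in MORF2OX(w) and 25.8 ± 3.88% in wild type on norflurazon, 3 groups whose libraries overlapped. For the other 5 genes no 2 of the 5 groups overlapped, and the order was untreated wild type, gun1-9, MORF2OX, MORF2OX(w) and wild type on norflurazon. This order describes these libraries, and the share of all genes tested that have it was not counted.

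The make-up of the CP29 transcripts changed between the groups. LHCB4.2 made up 18.1% and 19.1% of the counts of the 3 LHCB4 genes in gun1-9, 11.1% and 11% in MORF2OX, 8.92% and 8.88% in MORF2OX(w), 6.02% and 6.52% in wild type on norflurazon, and 39.8% and 39.6% in untreated wild type. Exact 95% binomial intervals, which cover counting error only, were widest in wild type on norflurazon, at 5.60% to 6.46% and 6.07% to 7.0%. No 2 groups overlapped. LHCB4.3 made up 0.827% and 0.873% in gun1-9, 1.02% and 0.829% in MORF2OX, 1.4% and 1.39% in MORF2OX(w), 2.91% and 3.07% in wild type on norflurazon, and 0.588% and 0.492% in untreated wild type. Its share was highest in treated wild type, where its own level was among the lowest, since LHCB4.1 and LHCB4.2 were low there.

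**Figure D4:**
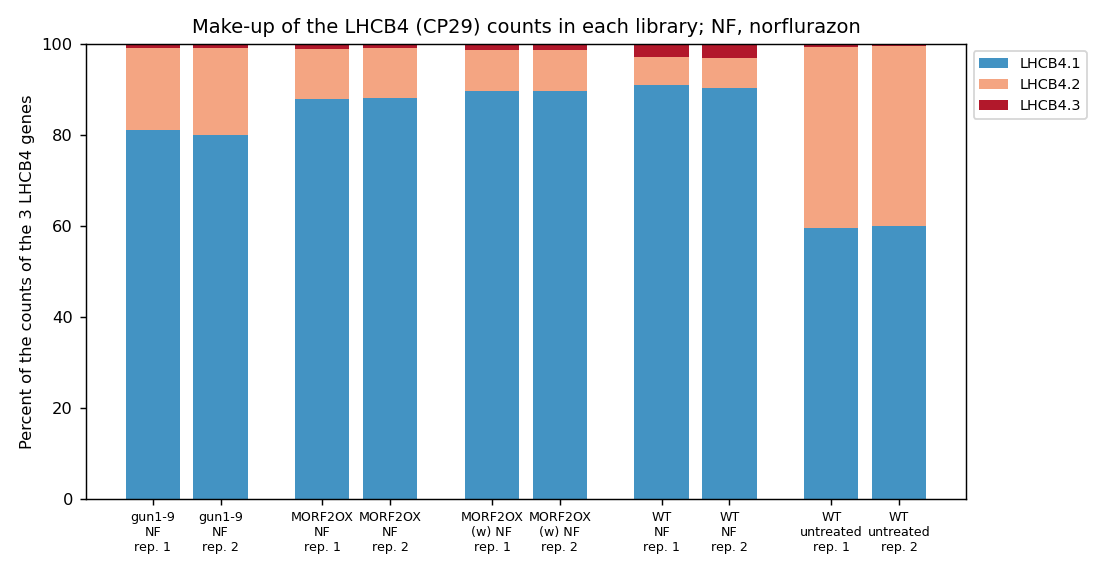
Share of LHCB4.1, LHCB4.2 and LHCB4.3 in the summed counts of the 3 LHCB4 genes, in percent, 1 stacked bar per library. The LHCB4.2 segment is 6.02% and 6.52% in wild type on norflurazon, against 39.8% and 39.6% in untreated wild type, with gun1-9, MORF2OX and MORF2OX(w) in between.

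A ratio of 2 genes within a library needs no scaling between libraries. LHCB4.1 exceeded LHCB4.2 by 4.33-fold in gun1-9, 7.97-fold in MORF2OX, 10.1-fold in MORF2OX(w), 14.4-fold in wild type on norflurazon and 1.5-fold in untreated wild type. Over all 945 ways to divide the 10 libraries into 5 pairs, the group share of the variance of this log2 ratio gave an exact one-sided permutation p of 0.00106, the smallest this design allows, and 0.00227 after adjustment over the 15 pairs of the 6 genes. Of the 15 pairs, 14 had an adjusted p under 0.05 in that exact permutation test. The share of pairs of other genes that would pass was not counted. The 15 pairs also reuse the same 6 genes, so this count is a description only. The exception was LHCB4.2 with LHCB6 (exact permutation p = 0.197), a pair that came under 0.05 without wild type on norflurazon (adjusted p = 0.0204) or without gun1-9 (0.039). Its ratio was 0.557 in gun1-9, 0.781 in MORF2OX, 0.734 in MORF2OX(w), 0.559 in wild type on norflurazon and 0.693 in untreated wild type, while the 2 libraries of 1 group differed by up to 0.59 in the log2 of this ratio. The ratio of LHCB6 to PSBS (exact permutation p = 0.0238 after adjustment) was 0.744 in gun1-9, 0.436 in MORF2OX, 0.685 in MORF2OX(w), 0.709 in wild type on norflurazon and 1.82 in untreated wild type. This pair was no longer under 0.05 without untreated wild type (adjusted permutation p = 0.214) or without MORF2OX (0.143). Its 2 treated wild type libraries, at 0.920 and 0.547, enclosed those of gun1-9 and MORF2OX(w). With untreated wild type left out, 10 of the 15 pairs had an adjusted p under 0.05.

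Most genes of the pathways around the minor antenna moved in the same directions, by amounts that differed between the lists. Of 16 other light-harvesting genes, 16 fell on norflurazon in wild type, with a median log2 fold change of -7.25. In gun1-9, MORF2OX and MORF2OX(w) 16, 16 and 14 of them were higher than in wild type on norflurazon, with medians of 4.98, 2.3 and 1.37. In this and the next lists the counts in MORF2OX(w) rest on the shared fit: with only MORF2OX(w) and treated wild type in it, 9 of the 16 were called. The 6 genes described here had medians of -5.80, 4.4, 2.2 and 1.09 in the same 4 comparisons. LHCB7, a low-abundance member of the family, was the antenna gene that fell least, at -0.44 ± 0.10 (edgeR adjusted p = 0.00266), with 36.9 ± 1.91 CPM on norflurazon and 50.2 CPM untreated, but the call was lost with the 2 groups alone (0.0689) and without replicate 1 of untreated wild type (0.0721), and under library totals the sign turned (0.29). Single LHCB1 genes are near-identical copies whose shared reads may have been split or dropped in counting, so they are not named with values. They are among the 16 genes, so the counts and medians of this list rest partly on them.

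Of 10 nuclear photosystem II subunit genes, 10 fell on norflurazon, and 10, 10 and 9 were higher in gun1-9, MORF2OX and MORF2OX(w), the last being 5 and 4 without replicate 1 and replicate 2 of MORF2OX(w) and 2 in the fit of the 2 groups. PSBQ2, which belongs to the oxygen-evolving complex, fell furthest at -7.21 ± 0.18 (edgeR adjusted p = 1.16e-10) and was 29.8-fold higher in gun1-9. PSBR, which helps to assemble that complex, fell least at -2.64 ± 0.15 (adjusted p = 3.18e-08), to 1073 ± 191.1 CPM. LHCB4.1, LHCB4.2, LHCB5, LHCB6 and PSBS lay within the range of these subunits in both comparisons.

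Genes of quenching and of xanthophyll synthesis, in which PSBS works, had smaller medians. Of 14 such genes, 14 fell on norflurazon with a median of -1.59, and 14, 13 and 9 were higher in gun1-9, MORF2OX and MORF2OX(w), with medians of 1.54, 1.04 and 0.54. The count of 9 was 4 without either MORF2OX(w) library and 3 in the fit of the 2 groups. BCH2, a beta-carotene hydroxylase, fell furthest, by 6.62 on the log2 scale to 1.08 ± 0.123 CPM, against 107 CPM in untreated wild type (edgeR adjusted p = 6.69e-11). LUT1, a carotene hydroxylase of lutein synthesis, fell least at -0.40 ± 0.11 (adjusted p = 0.00632), but this call was lost under upper-quartile scaling (0.0996), with no filter (0.0674), with the 2 groups alone (0.107) and without replicate 1 of untreated wild type (-0.24, adjusted p = 0.155), and the sign turned under library totals (0.34). LCNP, the plastid lipocalin of a sustained form of quenching, was not called in MORF2OX (-0.16 ± 0.15, adjusted p = 0.438) or MORF2OX(w) (-0.30 ± 0.15, adjusted p = 0.209). Without replicate 2 of treated wild type it was called lower in both, at -0.38 (adjusted p = 0.0152) and -0.51 (0.00367), as it was under library totals (0.0182 and 0.0427).

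The 4 kinases and phosphatases that act on antenna and core proteins all fell on norflurazon, with a median of -1.56, and 4, 4 and 3 were higher in gun1-9, MORF2OX and MORF2OX(w). STN7, the LHCII kinase of state transitions, fell furthest at -1.93 ± 0.12 (edgeR adjusted p = 5.01e-08). All 5 genes of antenna insertion into thylakoids fell, with a median of -1.81, and 5, 5 and 4 were higher in the 3 lines. In MORF2OX(w) 1 gene of each of these 2 lists was called without either of its libraries, and 0 in the fit of the 2 groups. Of the insertion genes CPSRP43, a subunit of the chloroplast signal recognition particle, fell furthest at -2.50 ± 0.14 (adjusted p = 2.04e-08). The 4 genes of chlorophyll b metabolism fell too (2 under library totals), with a median of -0.95, and 2, 3 and 1 were higher in gun1-9, MORF2OX and MORF2OX(w), where the count of 3 was 1 with the 2 groups alone or under library totals, and that of 1 was 2 without replicate 1 of treated wild type. CAO, which makes chlorophyll b, fell by 4.42 on the log2 scale (adjusted p = 2.01e-10) and was 6.25-fold higher in gun1-9, 2.69-fold in MORF2OX and 1.84-fold in MORF2OX(w). HCAR, which acts on the way back to chlorophyll a, was not called in any of the 3 lines, but was called lower in gun1-9 under upper-quartile scaling (adjusted p = 0.0167) and in all 3 under library totals (0.00127 in gun1-9, 0.0101 in MORF2OX and 0.039 in MORF2OX(w)).

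On norflurazon, where 34.5% of the genes tested were called lower and 6298 of 20628 higher, 5 of 8 known regulators of antenna genes fell and 1 rose. These counts were 2 and 3 under library totals, and 3 and 2 without replicate 1 of untreated wild type, where GNC and PIF1 lost their calls and GNL gained one. In gun1-9 2 of the 8 were higher and 3 lower than in wild type on norflurazon, and 5 were lower under library totals. Of the genes tested 22.9% were called higher there, a share near that of the regulators, and 4310 of 20628 lower. Without replicate 1 of treated wild type GNC moved from -0.42 to -0.68 and PIF1 from -0.16 to -0.35. GLK1, a transcription factor that activates antenna genes, was at 102 ± 1.76 CPM in gun1-9, 8.73 ± 0.108 CPM in MORF2OX, 6.74 ± 0.809 CPM in MORF2OX(w), 4.09 ± 1.47 CPM in wild type on norflurazon and 208 ± 7.46 CPM in untreated wild type. Its log2 fold change was -5.65 on norflurazon (edgeR adjusted p = 6.39e-10), 4.63 in gun1-9 (5.79e-09) and 1.08 in MORF2OX (0.00144). In MORF2OX(w) it was 0.71 (0.0363), a call that was lost in 9 of the 10 fits without 1 library, all but that without replicate 2 of treated wild type (adjusted p of 0.0564 to 0.223), and with only the 2 groups in the fit (0.227). Its partner GLK2 stood at 1.90 in gun1-9, 0.89 in MORF2OX and 0.58 in MORF2OX(w), all called (adjusted p = 1.87e-07, 0.000225 and 0.00995), the last one lost without either MORF2OX(w) library (0.105 and 0.0613). With only the 2 groups in the fit the call of GLK2 in MORF2OX(w) was lost too (edgeR adjusted p = 0.108). That of GLK1 in MORF2OX(w) was also lost under upper-quartile scaling (0.0618) and library totals (0.0943). HY5, a light-signalling factor, rose on norflurazon by 1.51 (adjusted p = 1.69e-06) and was lower in gun1-9 at -1.06 (adjusted p = 6.2e-05). GNL, a GATA factor that promotes chloroplast development, was lower in gun1-9 at -1.21 (adjusted p = 2.75e-05), and PIF3, a phytochrome-interacting factor, at -0.79 (adjusted p = 0.00067). GLK1 and GLK2 were the regulators called in MORF2OX and MORF2OX(w), 2 of 8, which for MORF2OX is near the 19.3% of all genes tested. The calls depended on the wild type libraries: without replicate 2 of treated wild type, PIF1 was also higher and HY5 lower in MORF2OX, and 4 regulators were higher and 2 lower in MORF2OX(w). Upper-quartile scaling made PIF3 and HY5 lower in MORF2OX (adjusted p = 0.0277 and 0.0354).

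The genes whose levels followed the 6 most closely were picked by Pearson correlation over the 10 libraries, among 20622 other genes, as a description. The mean of the 6 was followed by PSBQ1 (r = 0.9989), a subunit of the oxygen-evolving complex, by PSAH2 (0.9985), PSAO (0.998) and PSAE-2 (0.998), subunits of photosystem I, and by AT1G74070 (0.9976). PSBQ1 was at 867 and 919 CPM in gun1-9, 351 and 269 CPM in MORF2OX, 167 and 177 CPM in MORF2OX(w), 114 and 78.0 CPM in wild type on norflurazon, and 2636 and 2216 CPM in untreated wild type. These groups were apart and in the order seen for the 5 abundant members. By rank correlation 102 genes tied at the top for the mean of the 6, 4 of these 5 among them.

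LHCB4.3 had other neighbours. PPa2, a soluble pyrophosphatase (r = 0.9907), GLUR2, a glutamate receptor (0.9903), and AT3G62530 (0.99) followed it most closely, but none of them was among the top 3 by rank. PPa2 was at 46.9 and 44.1 CPM in gun1-9, 19.2 and 13 CPM in MORF2OX, 14.2 and 12 CPM in MORF2OX(w), 17.0 and 13.4 CPM in wild type on norflurazon, and 76.6 and 67.6 CPM in untreated wild type. It too overlapped between MORF2OX, MORF2OX(w) and wild type on norflurazon. PSBS was followed by SFR2, a galactolipid-remodelling enzyme of the chloroplast envelope (r = 0.9986), by PPL1, a PsbP-like protein (0.9985), and by ATSPS4F, a sucrose phosphate synthase (0.9979). By rank 69 genes tied at the top for PSBS, with 1 of these 3, SFR2, among them. Among the 6 themselves the correlations were 0.971 to 0.997 for pairs without LHCB4.3 and 0.888 to 0.95 for pairs with it. All points share libraries and scaling factors, and the 5 groups set most of the variation, so these values describe likeness only.

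LHCB4.2 overlaps AT3G08943 on the opposite strand by 44 bases, and that gene had 443 to 1156 counts per library. LHCB6 overlaps AT1G15810 on the opposite strand by 103 bases, with 294 to 873 counts, and AT1G05207 on the opposite strand by 358 bases, for which no counts were used here. The kit keeps the strand, but the strand setting of the counting is not given in the sources used here, so the lowest counts of LHCB4.2 and LHCB6, those in wild type on norflurazon, are uncertain to that extent.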

How the data were processed

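Poly(A)-selected, stranded, single-end RNA-seq was done by the authors, per the labels' protocols. The deposited values are raw counts per gene, made with TopHat2 2.1.1, Bowtie2 2.3.1 and HTSeq 0.6.1 on TAIR10, per the submitters' processing notes. Their settings are not given in the sources used. The counts were analysed with edgeR 4.0.16 in R 4.3.3: filterByExpr kept 20628 genes and left out 12974, libraries were scaled by TMM, and 1 fit of 5 group means was tested with glmQLFTest. P-values were adjusted over all genes tested, with a threshold of 0.05. The residual degrees of freedom were 5. SE is the size of the log2 fold change divided by the square root of F. Correlations used log2 CPM with a prior count of 2, and ratios a pseudocount of 2 counts. Scripts were tested on simulated data. The genes and lists were chosen with earlier results of these data known. The text names the 6 genes, GUN1, MORF2, all regulators, the nearest genes by correlation, and of each pathway list some of the genes with the highest and lowest fold change. The labels do not say that replicates were grown apart, so p-values may measure technical spread only. Same-numbered replicates did not deviate together (correlations of -0.102 to 0.0892), so replicate numbers were not used as pairs.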

Additional observations from a re-analysis of the deposited data

How the results depend on the processing

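Of 1020 log2 fold changes of the 6 genes under alternative settings, 990 stayed on their side of the threshold, 25 lost their call and 5 gained one. No called value changed sign, but LHCB4.3, uncalled, did in 5 fits: it ran between -0.37 and 0.16 in MORF2OX and between -0.32 and 0.037 in MORF2OX(w) against treated wild type, and between -0.12 and 0.28 in MORF2OX against MORF2OX(w). The settings were 3 other scalings, no filter, the 2 compared groups alone, a replicate block, DESeq2 1.42.0 and 10 fits without 1 library. The count of called genes among the 6 in MORF2OX(w) against wild type on norflurazon was 3 with the 2 groups alone, against 5. In MORF2OX against MORF2OX(w) it was 0 to 5 without 1 library, against 4: 2 without either MORF2OX library, and 1 and 0 without replicate 1 and replicate 2 of MORF2OX(w). The replicate block moved no fold change of the 6 by over 0.0262 and changed none of their calls: 6 were called in treated against untreated wild type and in gun1-9 against treated wild type, 5 in MORF2OX and 5 in MORF2OX(w) against treated wild type, and 4 in MORF2OX against MORF2OX(w).

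Against untreated wild type, library totals alone reversed LHCB7 (0.29), LUT1 (0.34), HCAR (0.11), GNC (0.056), PIF1 (0.18) and HYH (0.72) in treated wild type. HYH turned on the 2 treated wild type libraries: it stood at -0.42 without replicate 1 and 0.31 without replicate 2 in treated against untreated wild type, and at 0.35 without replicate 1 and -0.39 without replicate 2 in MORF2OX(w) against treated wild type. Without replicate 1 it was also called higher in gun1-9 (0.60) and MORF2OX (0.57). The causes were not tested. Over all genes, 374 were called in MORF2OX against MORF2OX(w), against 870 with no filter, 1286 with the 2 groups alone, 638 with DESeq2 and 0 to 1548 without 1 library. In MORF2OX(w) against treated wild type 2659 were called, against 335 with the 2 groups alone and 526 to 7768 without 1 library, and in MORF2OX 6886, against 2791 and 3320 to 10050. Upper-quartile scaling moved the median of all genes by at most 0.203 in size and library totals by at most 0.734. With 2 libraries a group, small differences such as those of LHCB4.3 on norflurazon are not resolved below their intervals.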
